A study of Mus musculus with 6 samples.

Results

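The 10 genes described here encode the MHC class II molecules of the mouse and the proteins that load and switch them on. They are the α and β chain genes H2-Aa, H2-Ab1, H2-Ea and H2-Eb1, the peptide-exchange genes H2-DMa, H2-DMb1, H2-DMb2 and H2-Oa, the invariant chain gene Cd74 and the transcriptional coactivator gene Ciita. The genes were chosen with earlier results of these data known, and their probe sets by symbol alone. A probe set is 1 row of the deposited array table. It was taken where the probe annotation gave exactly 1 symbol and that symbol was one of the 10. This found 76 of 212097 probe sets with 1 symbol and all 10 genes among 20416 genes, with no filter on low values.

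The arrays measured kidneys of mice labelled as having induced renal fibrosis, in 2 groups of 3. B6-TGFbeta (replicates 1, 2 and 3) carries the genotype label B6-TGFß (WT), and CBAxB6-TGFbeta (replicates 4, 5 and 6) the label CBAxB6-TGFß (KO). TGFß is in the name of both groups, so no array comes from a mouse without it, and a difference between the backgrounds that existed before fibrosis cannot be told apart from a different response to it. The sources used here do not give what was knocked out, the promoter that drives TGFß, the age or the sex, although the mice are described as littermates matched for age and sex. Nothing says that the arrays of a group came from separate animals beyond their being separate samples, so p-values measure the spread between these samples. The question of the comparison, by the title of the series, is how strains of different sensitivity to renal fibrosis differ.

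MHC class II molecules carry peptides from endocytosed protein to the cell surface, where CD4+ T cells read them. Each molecule pairs an α and a β chain, I-A from H2-Aa and H2-Ab1 and I-E from H2-Ea and H2-Eb1. The invariant chain, made from Cd74, holds the groove closed until the DM protein exchanges its remnant for a peptide, and the DO protein, of which H2-Oa makes a chain, restrains DM. CIITA binds no DNA itself and is recruited by RFX at the X box and NF-Y at the Y box of class II promoters. Dendritic cells, macrophages and B cells carry these molecules, and interferon-γ can induce them in other cells, injured tubular epithelium included. C57BL/6 mice hold the H2-b haplotype, in which a deletion at the start of H2-Ea silences it, so they make no I-E at the cell surface. CBA mice hold the H2-k haplotype, which makes it. The haplotypes of the mice measured here were not analysed. RefSeq lists H2-Ea of the C57BL/6J assembly as a transcribed pseudogene.

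Promoter sequences are printed because the X and Y boxes are the shared elements at which CIITA acts on these genes. Of the members looked up, 6 had an entry in the RefSeq promoter table (build GRCm38.p6). The related class II genes H2-Ob and H2-Eb2 were also listed. H2-Ab1, H2-Ea and Ciita had 0 entries, and no lookup of Cd74 was recorded. H2-DMa, whose nearest match lies 199 bases before the start, is not shown. The windows below run 5′ to 3′ on the strand of the gene, each 62 bases long, and capitals mark GATTGG, the core of the Y box, and GCAAC, part of the X box, where it lies 20 to 35 bases before it.
H2-Aa, minus strand, chr17:34287861-34287922: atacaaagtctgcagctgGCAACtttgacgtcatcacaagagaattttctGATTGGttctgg
H2-Eb1, plus strand, chr17:34305757-34305818: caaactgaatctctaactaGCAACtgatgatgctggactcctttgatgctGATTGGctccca
H2-Oa, plus strand, chr17:34092285-34092346: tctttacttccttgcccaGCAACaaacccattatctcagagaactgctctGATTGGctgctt
H2-DMb1, plus strand, chr17:34153079-34153140: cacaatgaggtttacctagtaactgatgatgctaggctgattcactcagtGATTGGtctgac
H2-DMb2, plus strand, chr17:34145108-34145169: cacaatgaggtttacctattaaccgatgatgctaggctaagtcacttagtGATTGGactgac
H2-Ob, plus strand, chr17:34238797-34238858: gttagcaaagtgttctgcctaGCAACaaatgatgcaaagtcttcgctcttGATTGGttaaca
H2-Eb2, plus strand, chr17:34325524-34325585: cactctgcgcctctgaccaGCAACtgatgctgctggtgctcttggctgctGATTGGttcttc

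GATTGG began 44 to 101 bases before the start of transcription in these 7 windows, and GCAAC ended 24 to 27 bases before it in 5 of them. H2-DMb1 and H2-DMb2 lacked GCAAC there and shared GATGATGC, which H2-Eb1 also held next to its GCAAC. All 32851 promoters of the table were searched on both strands, each from 250 bases before to 50 after the start. This search was wider than that for the windows above, which used only the strand of the gene and the bases before the start. GATTGG stood in 16.1%, GCAAC followed by GATTGG after 20 to 35 bases in 0.280% and GATGATGC in 0.703%. The spacing and GATGATGC were chosen after these sequences were seen. H2-Aa and H2-Oa, which both hold the spaced pair, are the members with the largest and the smallest expression difference among the 5 shown, and a match is a description of the letters only.

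Class II expression was higher in CBAxB6-TGFbeta kidneys for 3 of the 10 genes: H2-Aa by 1.78-fold, H2-DMb2 by 1.57-fold and H2-Ea, whose B6-TGFbeta reading was dim, with an intensity ratio of 13.1. No member was lower, and 7 did not pass an adjusted p of 0.05 in limma with Benjamini-Hochberg adjustment over all genes. Of all genes tested, 7.65% passed in either direction, 3.08% as higher and 4.57% as lower. Differences are given throughout as CBAxB6-TGFbeta minus B6-TGFbeta on the log2 intensity scale, with the standard error (SE) of the limma model. All 10 differences were above 0, with a median of 0.62, against 53.9% of all genes above 0 and a median of 0.018 over them. In 7 members the groups did not overlap and CBAxB6-TGFbeta was the higher, which held for 13.5% of all genes. Without adjustment 9 members had a limma p under 0.05 in the higher direction and 0 in the lower. Of all genes, 10.5% had such a p in the higher direction. Because the members were chosen with earlier results known, these shares describe the set and do not test it.

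**Figure D1:**
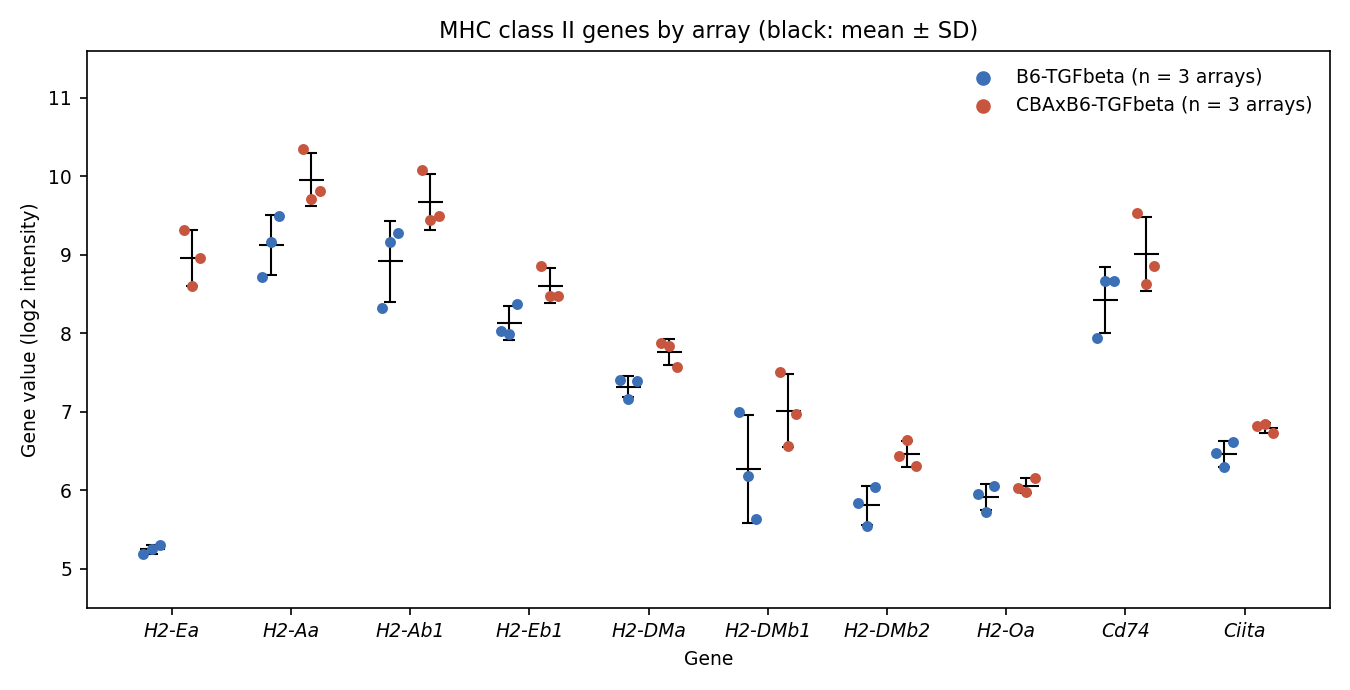
Gene values (log2 intensity, vertical axis) of the 10 members in each array, blue for B6-TGFbeta and red for CBAxB6-TGFbeta, with black marks for mean ± SD over 3 arrays. H2-Ea sits near 5.2 on the B6-TGFbeta arrays and between 8.60 and 9.32 on the CBAxB6-TGFbeta arrays, while the other genes differ by less than 1 on this scale.

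The α chain gene H2-Ea stood furthest apart. It read 5.18, 5.25 and 5.30 on B6-TGFbeta replicates 1, 2 and 3 and 9.32, 8.60 and 8.95 on CBAxB6-TGFbeta replicates 4, 5 and 6. The B6-TGFbeta arrays lay close together (SD 0.058, n = 3) and the lowest CBAxB6-TGFbeta array lay 3.30 above the highest of them. The difference was 3.72 (SE 0.16), with an adjusted p of 1.49e-05 in limma. The mean in B6-TGFbeta was at the 17.9th percentile of all gene values in that group, and the table carries no detection call. The 13.1 is therefore a ratio of intensities and no measure of the RNA ratio, since the B6-TGFbeta reading cannot be told apart from background.

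All 5 probe sets of H2-Ea were higher in CBAxB6-TGFbeta and passed in a separate limma fit over all 212097 probe sets, where 0.630% passed in either direction, 0.279% as higher and 0.351% as lower. The second probe set, in table order, differed most. It read 3.04, 2.93 and 3.00 in B6-TGFbeta and 8.76, 6.64 and 8.62 in CBAxB6-TGFbeta, a difference of 5.02 (SE 0.53, limma adjusted p 0.0253). CBAxB6-TGFbeta replicate 5 was the lowest of its group on this probe set and also on the other 4. The third probe set, the brightest by its mean over the 6 arrays, read 6.11, 6.17 and 6.05 against 10.25, 9.57 and 9.74, a difference of 3.74 (SE 0.22, limma adjusted p 0.00878). The fifth spread more in B6-TGFbeta than the other 4 did, at 4.57, 4.94 and 6.10, and read 10.50, 9.40 and 9.81 in CBAxB6-TGFbeta. The remaining 2 differed by 3.11 (SE 0.27) and 3.01 (SE 0.31). With any 1 array left out, 0 to 2 of the 5 passed in the probe set fit, while the gene value kept its call.

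**Figure D2:**
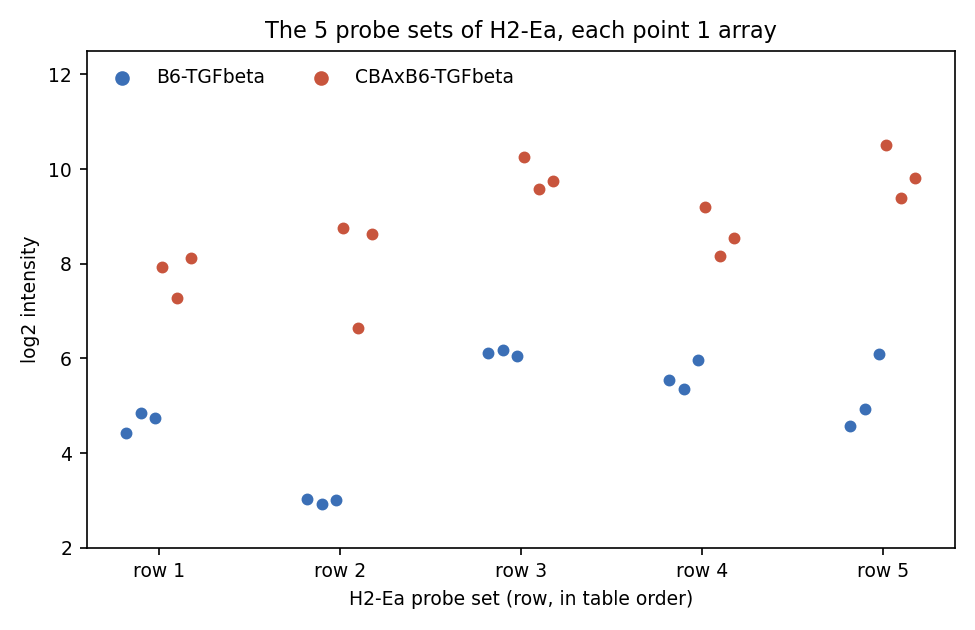
Log2 intensity (vertical axis) of the 5 H2-Ea probe sets (horizontal axis, in table order), each point 1 array, blue for B6-TGFbeta and red for CBAxB6-TGFbeta. In every probe set the lowest red point lies above the highest blue point, by 2.19 to 3.61.

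H2-Eb1, whose product is the β chain that I-E needs beside H2-Ea, differed far less. Its gene value was 8.02, 7.99 and 8.38 in B6-TGFbeta and 8.86, 8.48 and 8.47 in CBAxB6-TGFbeta. The groups did not overlap, with a gap of 0.096, and the difference of 0.47 (SE 0.15) did not pass (limma adjusted p 0.0895). Its 7 probe sets did not move alike. Probe sets 4, 5 and 6 had differences of 0.77, 0.91 and 0.76, whereas probe sets 1, 3 and 7 stood at 0.072, -0.11 and -0.10.

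The I-A chain genes H2-Aa and H2-Ab1 followed. H2-Aa read 8.72, 9.17 and 9.49 in B6-TGFbeta and 10.34, 9.71 and 9.82 in CBAxB6-TGFbeta, which did not overlap by 0.22. The difference was 0.83 (SE 0.21, limma adjusted p 0.0482). All 5 of its probe sets were above 0, from 0.13 to 1.41, but none passed by itself. The brightest of them, at 10.06, 10.51 and 10.94 in B6-TGFbeta and 10.80, 10.22 and 10.87 in CBAxB6-TGFbeta, overlapped between the groups and differed by 0.13 (SE 0.29). The call of H2-Aa was lost without any 1 of the 6 arrays, with adjusted p from 0.173 to 0.383 and differences from 0.51 to 1.01, the lowest without CBAxB6-TGFbeta replicate 4.

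H2-Ab1 gave 8.33, 9.16 and 9.27 in B6-TGFbeta and 10.08, 9.45 and 9.49 in CBAxB6-TGFbeta. B6-TGFbeta replicate 1 was the low array and CBAxB6-TGFbeta replicate 4 the high one, as for H2-Aa. The groups were 0.17 apart, and the difference of 0.75 (SE 0.25) did not pass (limma adjusted p 0.117). Without B6-TGFbeta replicate 1 the difference was 0.36, and without CBAxB6-TGFbeta replicate 4 it was 0.47. Its 6 probe sets were all above 0, from 0.15 to 1.06.

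Cd74 overlapped between the groups. It read 7.94, 8.66 and 8.67 in B6-TGFbeta and 9.54, 8.63 and 8.86 in CBAxB6-TGFbeta, a difference of 0.59 (SE 0.26, limma adjusted p 0.222). CBAxB6-TGFbeta replicate 5 lay just under 2 of the B6-TGFbeta arrays. The difference was 0.32 without CBAxB6-TGFbeta replicate 4 and 0.35 without B6-TGFbeta replicate 1. Of its 12 probe sets, 11 were above 0. The twelfth in table order had the largest difference, 1.31 (SE 0.23, limma adjusted p 0.0690). There the CBAxB6-TGFbeta arrays, at 8.13, 8.32 and 8.20, lay closer together than the B6-TGFbeta arrays, at 6.53, 7.31 and 6.86.

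Among the peptide-exchange genes, only H2-DMb2 passed. Its values were 5.84, 5.55 and 6.04 in B6-TGFbeta and 6.44, 6.64 and 6.31 in CBAxB6-TGFbeta, a difference of 0.65 (SE 0.14, limma adjusted p 0.0262). This rests on 2 probe sets, of which 1 overlapped between the groups. Leaving out any 1 array ended the call, with adjusted p from 0.1001 to 0.225 and differences from 0.52 to 0.77. H2-DMa, the α chain of DM, missed the threshold narrowly, at 7.40, 7.16 and 7.39 against 7.88, 7.84 and 7.57, a difference of 0.44 (SE 0.12, limma adjusted p 0.0563). It passed under 5 of 17 alternative settings, and on its brightest probe set alone it was 0.17. Its 6 probe sets ran from -0.023 to 0.99, and in 2 of them the groups did not overlap.

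H2-DMb1 and H2-DMb2 are near-identical β chain genes, and their values cannot be fully separated. H2-DMb1 rested on 1 probe set of its own, which read 6.998, 6.18 and 5.63 in B6-TGFbeta and 7.50, 6.57 and 6.97 in CBAxB6-TGFbeta, a difference of 0.75 (SE 0.33, limma adjusted p 0.229). It was the member with the widest spread within B6-TGFbeta, and replicate 1 was its highest array there, where it was the lowest for H2-Aa. Its difference was 1.11 without B6-TGFbeta replicate 1 and 0.43 without replicate 3. Another 3 probe sets were annotated to both genes and were left out of the gene values. They read 6.47, 6.03 and 6.02 against 7.80, 6.85 and 7.37, then 7.32, 7.34 and 7.48 against 8.32, 7.99 and 7.54, and 7.78, 7.99 and 7.94 against 8.92, 8.64 and 8.50. Their differences were 1.16, 0.57 and 0.78, and each of the 3 kept the groups apart; they were not tested.

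H2-Oa had the smallest difference of the 10, 0.15 (SE 0.11, limma adjusted p 0.520). Its values of 5.95, 5.73 and 6.05 in B6-TGFbeta and 6.03, 5.97 and 6.16 in CBAxB6-TGFbeta overlapped. The difference was 0.018 without B6-TGFbeta replicate 2, 0.043 without CBAxB6-TGFbeta replicate 4 and 0.047 without replicate 6. H2-Ob, which makes the other DO chain, differed by 0.025 (SE 0.14), and H2-Eb2, another β chain gene of the region, by 0.25 (SE 0.11, limma adjusted p 0.222). Neither of these 2 related genes passed in limma, with 1 of them under an unadjusted p of 0.05.

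Ciita, the coactivator, read 6.47, 6.29 and 6.62 in B6-TGFbeta and 6.82, 6.84 and 6.72 in CBAxB6-TGFbeta. The groups were 0.10 apart, and the difference of 0.33 (SE 0.11) did not pass (limma adjusted p 0.110). Without B6-TGFbeta replicate 2 it was 0.21. It is measured by 27 probe sets, 22 of them above 0 and 7 of them higher without overlap. The ninth in table order differed most, at 5.65, 6.08 and 5.51 against 7.53, 7.26 and 6.95, a difference of 1.497 (SE 0.24, limma adjusted p 0.0520). The last in table order was the lowest, at -0.35 (SE 0.56). The first exon of Ciita differs between dendritic cells, B cells and cells induced by interferon-γ, and the positions of the probe sets on its exons were not used here.

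**Figure D3:**
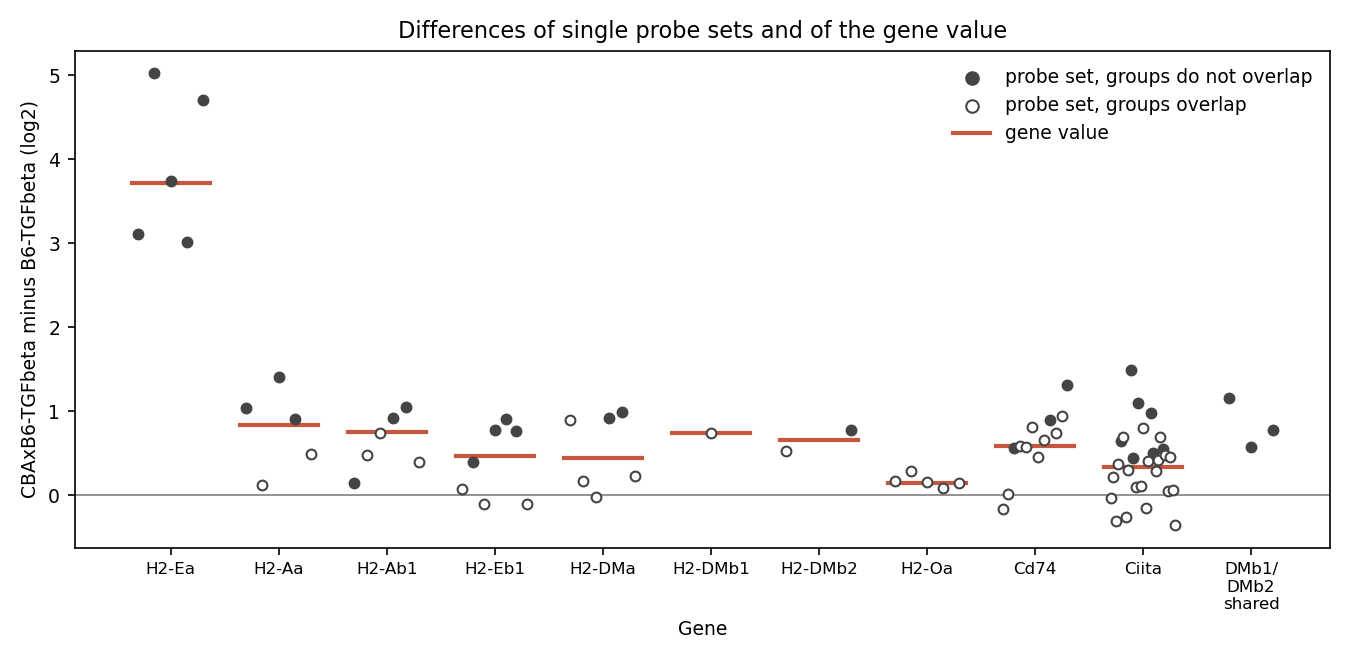
Differences of single probe sets (points, CBAxB6-TGFbeta minus B6-TGFbeta, log2, vertical axis) for each gene, with the difference of the gene value as a red line. Filled points mark probe sets whose groups do not overlap; the H2-Ea probe sets lie between 3.01 and 5.02 and all others between -0.35 and 1.497. The last column shows the 3 probe sets annotated to both DMb genes, with no gene value.

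Over all 76 member probe sets, 67 were above 0, against 49.9% of all probe sets. The groups did not overlap in 28 of the 76, each of them higher in CBAxB6-TGFbeta. Over all probe sets, 10% (21294 of 212097) were higher without overlap. In the limma fit over probe sets 5 passed, those of H2-Ea, and 0 were lower. Without adjustment 26 were higher and 0 lower at a p under 0.05. The share of all probe sets at that unadjusted threshold was not counted, so the 26 cannot be set against a background. Probe sets of 1 gene share their transcript and are not replicates. The arrays of this kind are designed on a reference sequence, and the CBA class II alleles differ from those of C57BL/6 in many places. A different RNA level and a different fit of the probes therefore cannot be told apart in single probe sets, and least of all where the probe sets of 1 gene disagree.

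The gene order on the reference chromosome 17 runs H2-Oa, H2-DMa, H2-DMb2, H2-DMb1, H2-Ob, H2-Ab1, H2-Aa, H2-Eb1, H2-Eb2, H2-Ea. Along it the differences were 0.15, 0.44, 0.65, 0.75, 0.025, 0.75, 0.83, 0.47, 0.25 and 3.72. The lowest values stood at H2-Ob, H2-Oa and H2-Eb2, the first and last of these between genes with higher values. Cd74 and Ciita, on other chromosomes, had differences of 0.59 and 0.33, inside the range of the linked genes other than H2-Ea.

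Within the groups the same arrays were often the high ones. CBAxB6-TGFbeta replicate 4 was the highest of its group in 7 of the 10 members, and B6-TGFbeta replicate 3 in 8. H2-Aa and H2-Ab1 were each other's nearest gene among the members by root mean square distance between values centred on the gene's own mean over the 6 arrays, at 0.12, and H2-Ab1 was also the nearest gene to H2-Aa among all genes. After it came Tac2, a tachykinin gene, at 0.12 and Mpeg1, which encodes the pore-forming protein of macrophages, at 0.13. The median distance from H2-Aa to all genes was 0.52. Nearest to Cd74 were Laptm5, a lysosomal membrane gene of blood cells (0.089), the inflammatory caspase gene Casp1 (0.12) and Mpeg1 (0.12), with a median of 0.49 over all genes. H2-Ea lay closest to the fibrinogen chain gene Fgg (0.32), the keratin gene Krt20 (0.36) and the complement gene C3 (0.43), genes with similarly wide gaps between the groups, with a median of 1.87. These distances are descriptions over 6 arrays that fall into 2 groups.

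**Figure D4:**
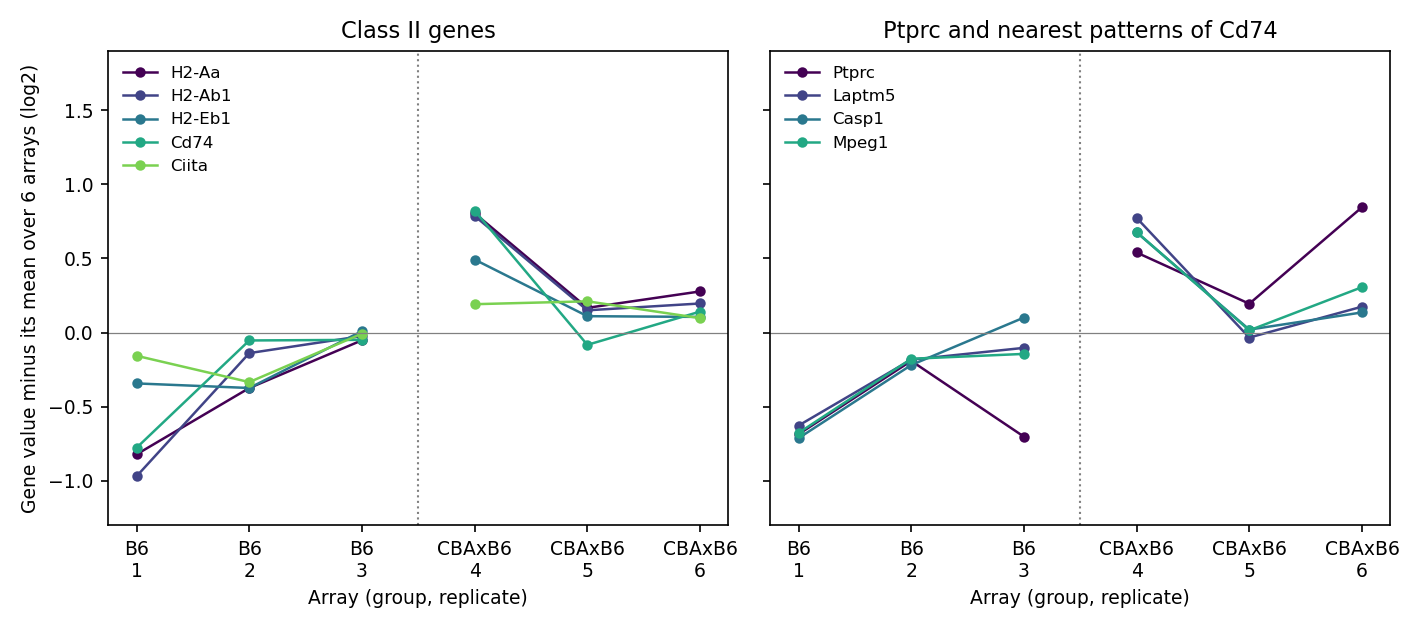
Gene values minus the gene's mean over 6 arrays (log2, vertical axis) by array, for class II genes on the left and for Ptprc, Laptm5, Casp1 and Mpeg1 on the right; lines join the arrays of a group only to follow a gene. B6-TGFbeta replicate 1 is low and CBAxB6-TGFbeta replicate 4 high for H2-Aa, H2-Ab1, Cd74, Laptm5, Casp1 and Mpeg1, while Ptprc peaks in CBAxB6-TGFbeta replicate 6.

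Some genes of leukocytes and myeloid cells were higher in CBAxB6-TGFbeta as well, and their part in the class II differences was not tested. The general leukocyte gene Ptprc read 8.19, 8.69 and 8.18 in B6-TGFbeta and 9.42, 9.07 and 9.73 in CBAxB6-TGFbeta, a difference of 1.05 (SE 0.19, limma adjusted p 0.0113). Among 16 macrophage and monocyte markers, 9 passed as higher and 1 as lower, against 3.08% and 4.57% of all genes. The median difference over the 16 was 0.61. Msr1 (2.19, SE 0.15), Mrc1 (1.56, SE 0.18), Ccr2 (2.34, SE 0.29) and Mertk (-0.78, SE 0.093) had the smallest p. The linear intensity summed over all 16 ran from 3566 to 4062 over the B6-TGFbeta arrays and from 5466 to 8488 over the CBAxB6-TGFbeta arrays. Of 14 dendritic cell markers, Itgax (0.91, SE 0.15), Cd209a (0.83, SE 0.14) and Flt3 (0.47, SE 0.097) were higher, against 3.08% of all genes, and 11 did not pass. Of the 14, 10 were above 0, against 53.9% of all genes. Zbtb46 and Xcr1 were among those below 0, at -0.27 and -0.016. The median over the 14 was 0.17, and the sums were 1274 to 1491 and 1510 to 1596. With 1 array left out in turn, 0 to 3 of the macrophage markers were higher and 0 or 1 lower, and no call held in the dendritic cell list or in the other pathway and lymphocyte lists described below.

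Markers of lymphocytes and of lymph node tissue, which could lie beside the kidney, were also read. Of 11 B cell markers 0 passed in limma and 1 had an unadjusted p under 0.05, with Cd79a at 0.32 (SE 0.14) and Cd79b at 0.23 (SE 0.10), and the sums overlapped at 645 to 716 and 663 to 751. Of 11 T and NK cell markers Cd2 was higher (0.41, SE 0.11, limma adjusted p 0.0496), against 3.08% of all genes, and 10 did not pass. The sums over the 11 were 607 to 640.02 and 601 to 682. Of these lists 4 and 5 genes were among the dimmest 25% of all genes. Of 3 lymph node stroma markers 0 passed in limma, 1 having an unadjusted p under 0.05, and Cxcl13, which draws B cells, was at -0.88 (SE 0.24). In whole kidney, more cells of a type and more RNA per cell cannot be told apart.

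The 9 kidney identity genes measured had group means from 7.28 to 12.60 in B6-TGFbeta and from 6.83 to 12.04 in CBAxB6-TGFbeta. All 9 were lower in CBAxB6-TGFbeta without overlap, which held for 13.4% of all genes. Of the 9, 7 passed the adjusted threshold in limma, against 4.57% of all genes as lower, and the median was -0.90. Slc34a1, the phosphate transporter of the proximal tubule (-1.88, SE 0.13), and Miox, which breaks down inositol there (-2.57, SE 0.25), were among the 7. B6-TGFbeta replicate 2 stood apart by genes of neighbouring tissue. On it the brown fat gene Ucp1 read 10.93, against 5.13 to 6.22 elsewhere, and the adrenal genes Star and Chgb read 10.74 and 11.21. B6-TGFbeta replicate 1 had Star at 8.90, where the other 4 arrays lay between 5.86 and 6.46. The fat gene Adipoq read 8.57 on B6-TGFbeta replicate 2 and 6.58 on CBAxB6-TGFbeta replicate 4, against 4.88 to 5.00 elsewhere. Whether fat tissue on CBAxB6-TGFbeta replicate 4 bears on its class II values was not tested. Without replicate 2 the differences of H2-Ea, H2-Aa and H2-DMb2 were 3.79, 0.83 and 0.52, and with B6-TGFbeta represented by replicate 3 alone they were 3.77, 0.48 and 0.42, H2-Ea alone passing in both fits (limma adjusted p 0.0393 and 0.0424). In the latter fit H2-Ab1, H2-Eb1, Cd74 and Ciita were at 0.20, 0.18, 0.39 and 0.097, and H2-DMb1 was at 1.39. The lone array is assumed there to vary like the other group.

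The genes upstream of class II moved in part. Of 10 measured genes of the interferon-γ axis, the receptor chain gene Ifngr1 (0.50, SE 0.12) and the kinase gene Jak2 (0.50, SE 0.11) were higher and 8 did not pass. Over all genes, 3.08% passed as higher. Ifng itself, at 5.28 in B6-TGFbeta and 5.53 in CBAxB6-TGFbeta, differed by 0.24 (SE 0.18), and Irf1, a target of the pathway that acts on Ciita, by -0.084 (SE 0.19). Of 12 promoter factors, the RFX and NF-Y subunits among them, 0 passed in limma and 2 were lower at an unadjusted p under 0.05. Those 2 were Nfyc at -0.30 (SE 0.11) and Rfxank at -0.29 (SE 0.12), and Rfx5 was at 0.013 (SE 0.10).

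In the steps before and beside peptide loading, some genes passed the adjusted threshold. Over all genes, 3.08% passed as higher and 4.57% as lower. Of 15 genes of lysosomal antigen processing, Ctss was higher (1.27, SE 0.20, limma adjusted p 0.00663). Cathepsin S, its product, cuts the invariant chain in antigen-presenting cells. Ctsh was lower (-0.49, SE 0.10) and 13 did not pass. Among the 13 were Ctsl, the cathepsin of thymic epithelium, at 0.17 (SE 0.093) and the thiol reductase gene Ifi30 at 0.22 (SE 0.094). Without adjustment 5 of the 15 were higher and 2 lower at a limma p under 0.05. Of all genes, 10.5% had such a p in the higher direction, and the lower direction was not counted. The groups did not overlap in 7 of the 15 that were higher in CBAxB6-TGFbeta and in 2 that were lower. Over all genes these shares were 13.5% and 13.4%. Of 10 costimulation genes Icam1 was higher (0.83, SE 0.19, limma adjusted p 0.0337) and 9 did not pass, with Cd86 at 0.46 (SE 0.23) and Cd80 at 0.26 (SE 0.12).

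The class I genes and their peptide loading machinery gave smaller values. Of 18 measured genes 0 passed in limma in either direction, with 4 higher and 1 lower at an unadjusted p under 0.05 and a median of 0.079. Of all genes, 10.5% had such a p in the higher direction. Under some alternative settings, such as array weights, 1 of the 18 passed as higher. The immunoproteasome gene Psmb8 (0.45, SE 0.12) and the peptidase gene Erap1 (0.32, SE 0.088) had the smallest p. The class I chains H2-K1 and H2-D1 stood at 0.073 (SE 0.15) and -0.20 (SE 0.17), and B2m at 0.021 (SE 0.11). Whether class II and class I differ in their change was not tested. Nlrc5, which serves class I promoters as Ciita serves class II, was at 0.097 (SE 0.10).

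**Figure D5:**
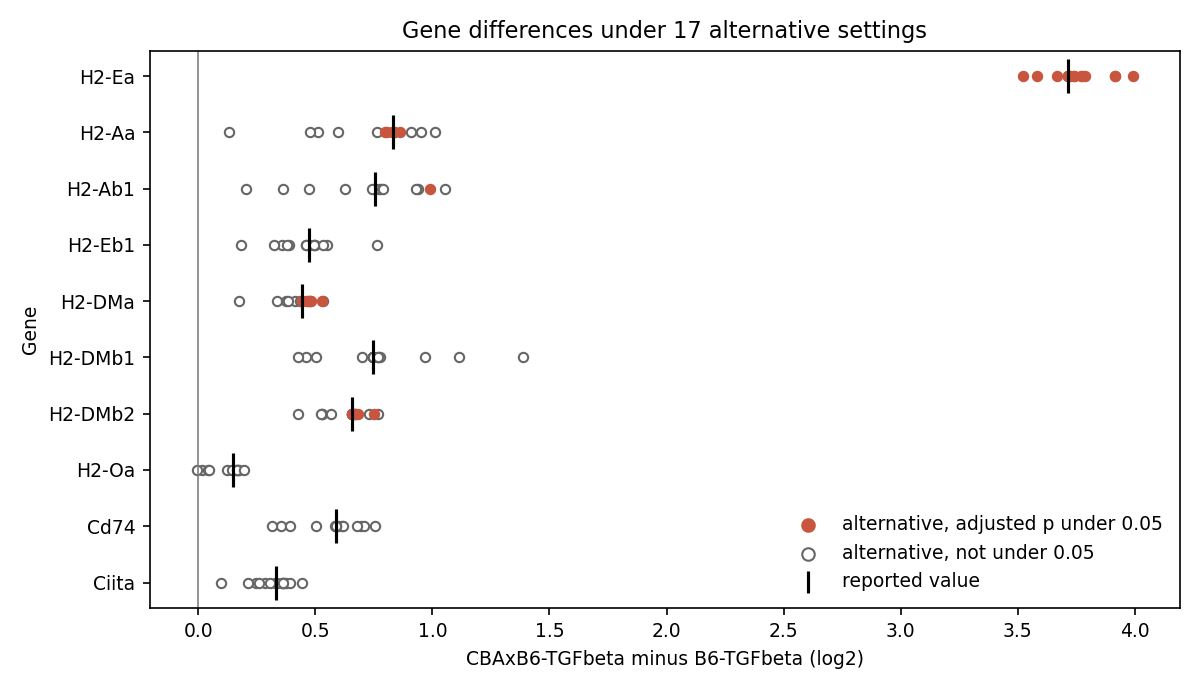
Differences of the 10 genes (CBAxB6-TGFbeta minus B6-TGFbeta, log2, horizontal axis) under 17 alternative settings, red where the adjusted p was under 0.05 and open where it was not, with a black bar for the reported value. H2-Ea stays between 3.52 and 3.99 and passes in all 17, while H2-Aa spans 0.13 to 1.01 and passes in 6.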

How the data were processed

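Values are log2 intensities as deposited, from Affymetrix mouse arrays, with a row for each exon probe set and a column for each sample. Per the submitters' processing notes, RMA and Partek were used; versions, normalization settings and genome build are not given in these sources. Array medians ran from 7.27 to 7.34. For arrays, depth has no meaning, and the 3 arrays a group limit the precision.

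Of 241576 rows, 4475 carried several symbols and 25004 none and were left out of the tests. Rows with 1 symbol were combined into gene values by Tukey's median polish. Differences were tested with limma 3.58.1 (R 4.3.3), two-sided, with moderated variances, 1 group term and Benjamini-Hochberg adjustment over all genes, or over all rows in the probe set fit; the code was checked on simulated data.

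The members and 14 further gene lists (150 of 158 entries matched in all) were chosen with earlier results of these data known. Named are all members, Ptprc, up to 4 passing genes of each list by p, or up to 2 where none passed (kidney, lymph node and neighbouring tissue genes mainly by range), and the 3 nearest patterns of H2-Ea, H2-Aa and Cd74. Other list genes named, such as Irf1, Ifng, Rfx5, Ctsl, Ifi30, Cd86, Cd80, Zbtb46, Xcr1, H2-K1, H2-D1, B2m and Nlrc5, were added with their values known. Alternatives changed the array scale, variance moderation, array weights, gene summary, filters on dim rows or genes, and the arrays used.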

Additional observations from a re-analysis of the deposited data

How the results depend on the processing

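Of 17 alternative gene fits, H2-Ea passed in all 17, with adjusted p from 6.77e-06 to 0.0464. All other member differences kept their sign in all 17, except H2-Oa, which stood at -0.0071 with B6-TGFbeta reduced to replicate 3. H2-Aa, H2-DMb2 and H2-DMa passed in 6, 7 and 5 of the 17, H2-Ab1 in 1 and the other 5 members, besides H2-Ea, in 0. The number of members called higher, 3 as reported, was 1 without moderation of the variances, with the brightest row of each gene alone and with B6-TGFbeta reduced to replicate 3, and 1 to 1 with each array left out in turn. The number of member probe sets called higher, 5 as reported, was 8 with trended moderation, 0 without moderation, 0 with B6-TGFbeta reduced to replicate 3 and 0 to 2 with each array left out. Over 11 pathway and marker lists, 17 genes were higher and 2 lower as reported. Without moderation these were 1 and 1, with B6-TGFbeta reduced to replicate 3 1 and 0, with each array left out 0 to 3 and 0 to 1, and on the brightest rows 13 and 0. Over all genes, the 628 higher and 934 lower behind the background shares became 23 and 40 without moderation, 21 to 219 and 36 to 335 with each array left out, and 335 and 282 on the brightest rows, where higher calls outnumbered lower ones. With B6-TGFbeta reduced to replicate 3 they were 25 and 15. With arrays left out fewer samples enter the fit; for the other changes the cause was not tested. No paired analysis was possible because the groups share no replicate numbers. Dim rows, such as those of H2-Ea in B6-TGFbeta and of H2-Oa, limit what can be read.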
